A study of Mus musculus with 8 samples.

Results

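AP-1 and its immediate early companions were followed here as 10 named genes, all of which were found among the 20189 genes measured: Fos, Fosb, Fosl1, Fosl2, Jun, Junb, Jund, Egr1, Ier3 and Dusp1. They were taken by name. Messenger RNA was sequenced from 4T1 cells, an epithelial cell line from a mouse mammary carcinoma, labelled wild type, after 48 h of culture with acetate at 5 mM or with its vehicle, water. There were 4 libraries in each group, and each acetate library was paired with the vehicle library of the same number, with which it shares a sample code. All 8 libraries come from this 1 line, which was plated overnight before treatment and detached with trypsin before lysis. The design asked how gene expression differs between the treatments, and these genes show where one signal-driven transcription system stood at that single time point.

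AP-1 is a dimeric transcription factor built from basic leucine zipper (bZIP) proteins of the Jun and Fos families. Jun proteins can pair with each other or with a Fos protein, whereas Fos proteins need a Jun partner to bind DNA well. Several of these genes are immediate early genes, which are switched on within minutes of a growth signal through ERK and other MAP kinases without new protein synthesis, and which usually fall back soon after. In carcinoma cells, Fosl1 is known for its link to invasion and a mesenchymal state.

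Of the 10 genes, 1 was lower (Fosl1) and 1 was higher (Dusp1) with acetate past an adjusted p of 0.05, and the other 8 did not pass. Across all genes 8.64% were called by the same fit, 5.99% higher and 2.65% lower. Among the 10840 genes with a mean of at least 64 normalised reads, a level that all 10 genes exceed, 14.8% were called. With 10 genes, 2 calls are near these shares. The test was limma on log2(value + 1) with the replicate number as a block, adjusted over all genes by the Benjamini-Hochberg method. Without the block no gene was called (0 of 20189, with 353 or 1.75% at an unadjusted p under 0.05), since the replicates differed from each other far more than the treatments did. The groups overlapped for each of the 10 genes, as they did for most genes, with 1.65% of all genes free of overlap. The median log2 change of the 10 genes was -0.02, against 0.02 over all genes.

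The libraries held 19.9 to 29.3 M reads (M, mega), and values below are normalised reads on a total of 20000000 per library. The 10 genes were covered by between 50 reads (Fos) and 12165 reads (Ier3) per library. The epithelial markers Krt8, Krt18, Krt7, Epcam, Cdh1 and Krt19 summed to between 56724.9 and 76026.1 normalised reads in every library. Of these 6, Krt19 (log2 change 0.40, limma adjusted p = 0.000254) and Cdh1 (0.15, 0.00592) were higher with acetate and the other 4 did not pass. Of 6 leukocyte markers 2 were measured, and they summed to 10.2 to 19.5 in vehicle and 24.5 to 38.0 in acetate, nearly all from Csf1r (13.1 ± 3.66 and 28.4 ± 6.20, SD, n = 4, limma adjusted p = 0.00774), with the pan-leukocyte gene Ptprc at 1.90 and 2.62. Of 5 fibroblast markers 4 were measured, and 2 of them were called higher with acetate. Pdgfra led (993.7 ± 543.8 and 1366.6 ± 680.3, limma adjusted p = 0.000372), and Pdgfrb was at 10.1 ± 8.76 and 23.3 ± 13.8 (0.0119). Dcn (4.22 and 6.95) and the collagen gene Col1a2 (0.954 and 1.43) did not pass. The 3 endothelial markers measured summed to at most 7.06. The part of these markers in the results below was not tested.

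**Figure D1:**
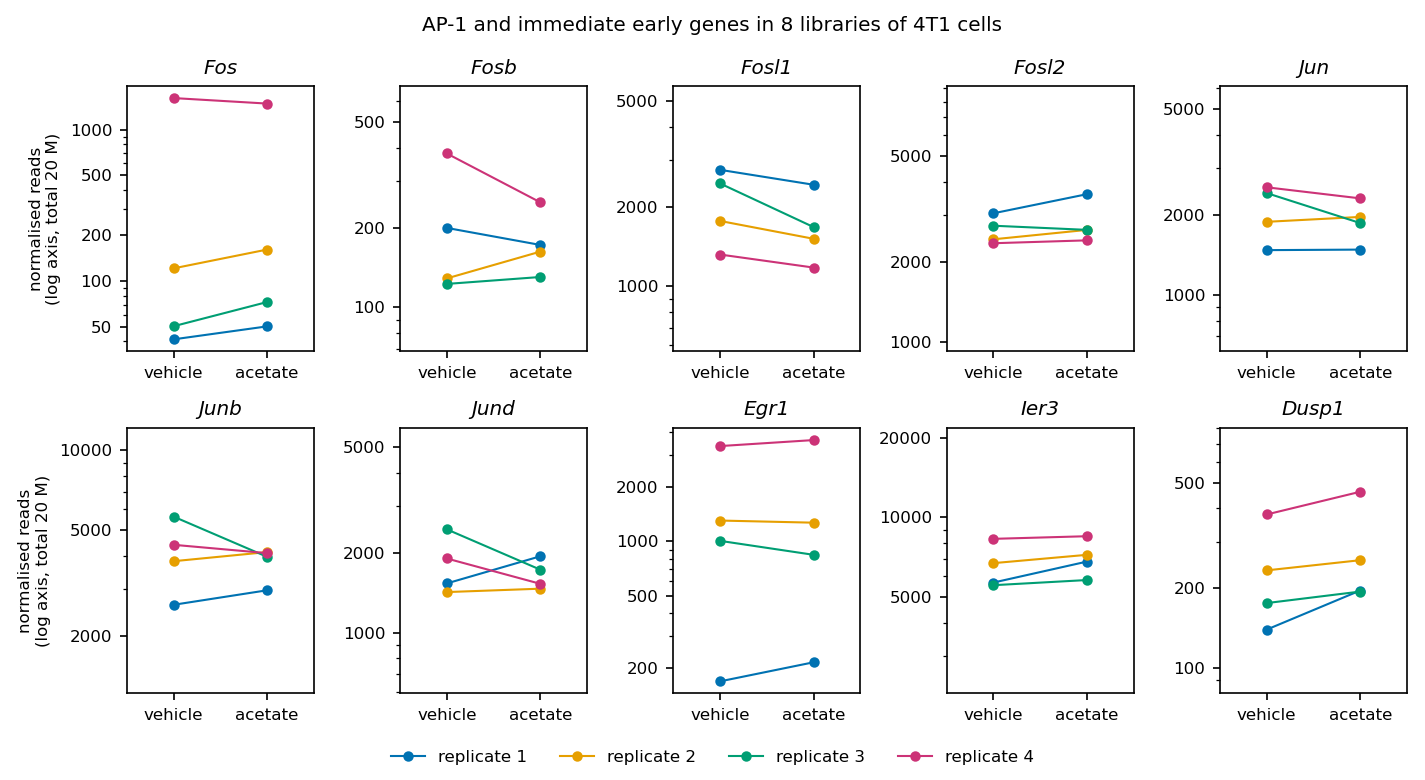
Normalised reads (log axis, total of 20000000 per library) of the 10 genes in each vehicle and acetate library, with lines joining the 2 libraries of a replicate number, and each panel on its own axis. Lines lie far apart for Fos and Egr1, where replicate 4 is highest in both groups, and all 4 lines go down for Fosl1 and up for Dusp1 and Ier3.

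Fosl1, which encodes the Fos family protein FRA-1, was the one member that was lower with acetate past the threshold. Fosl1 (ENSMUSG00000024912, GRCm38, chromosome 19, 5447547 to 5455946, plus strand, protein-coding) had 2750.7, 1765.3, 2443.8 and 1319.2 normalised reads in vehicle libraries 1 to 4. In the acetate libraries it had 2416.4, 1512.0, 1673.2 and 1178.0. The acetate library was the lower one in 4 of 4 pairs, which was so for 11.4% of all genes and 17.6% of those with a mean of at least 64, while the groups overlapped because the replicates ranged 2.07-fold. The mean went from 2069.7 ± 648.0 to 1694.9 ± 523.3 (SD, n = 4), and the log2 change was -0.28 with an SE of 0.05, a fold of 0.82 (95% interval 0.76 to 0.89, limma adjusted p = 0.00934). The adjusted p was 0.000140 in edgeR and 6.30e-05 in DESeq2 on the recovered reads, and it was 0.0597 in limma without replicate 4 and 1.00 without the block. Exons of Fosl1 overlap Ccdc85b on the opposite strand over 1163 bases in the annotation, and whether reads were counted by strand is not stated. Ccdc85b had 295.5, 281.6, 701.7 and 295.5 normalised reads with vehicle and 375.9, 316.6, 432.2 and 231.4 with acetate, a log2 change of -0.13 (limma adjusted p = 0.618). Its highest library was vehicle 3, of the pair in which Fosl1 differed most, and its part in the Fosl1 values was not tested.

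Fosl2 encodes FRA-2, the closest relative of FRA-1, and its values leaned the other way without passing. It (chromosome 5, 32135801 to 32157842, plus strand) had 3046.2, 2431.0, 2735.3 and 2349.7 normalised reads with vehicle and 3596.0, 2638.0, 2638.6 and 2409.2 in acetate. The acetate library was higher in 3 of 4 pairs, and the log2 change of 0.09 with an SE of 0.04 did not pass (limma adjusted p = 0.257, 95% interval -0.01 to 0.18). The ratio of Fosl1 to Fosl2 reads, a comparison chosen after the values were seen, was 0.903, 0.726, 0.893 and 0.561 in vehicle and 0.672, 0.573, 0.634 and 0.489 in acetate. It was thus lower in each of the 4 pairs, by a mean log2 difference of -0.37 ± 0.13 (SD, n = 4).

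Fos, the founding member and the best known immediate early gene, differed between replicates more than nearly any other gene with a mean of at least 64 normalised reads. Fos (ENSMUSG00000021250, chromosome 12, 85473890 to 85477273, plus strand) had 41.2, 121.3, 50.3 and 1617.4 normalised reads with vehicle and 50.2, 161.5, 72.7 and 1487.1 in acetate. Replicate 4 stood far above the rest under both treatments, 39.23 times the lowest vehicle library and 29.61 times the lowest acetate library. The replicate number held 99.2% of the variance of Fos on the log2 scale, and treatment 0.466%. Fos was higher with acetate in 3 of 4 pairs, by log2 differences of 0.28, 0.41 and 0.52, and lower in replicate 4 by one of -0.12. The log2 change was 0.27 with an SE of 0.10 (limma adjusted p = 0.135), 0.40 without replicate 4 (adjusted p = 0.146), and 0.02 in edgeR (adjusted p = 0.927).

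Fosb, whose products include the truncated and long-lived ΔFosB, had the lowest mean of the Fos family. In reads not divided by length, Fos was below Fosb in replicates 1 to 3 of both groups. After division by exon bases (2352 for Fos and 6243 for Fosb), Fos was below Fosb only in replicate 1, in both groups. Fosb (chromosome 7, 19302696 to 19310051, minus strand) had 199.3, 128.6, 122.6 and 380.1 normalised reads with vehicle and 171.9, 162.3, 130.2 and 248.7 in acetate. Replicate 4 was again highest in both groups, and the pairs split 2 against 2. The log2 change was -0.10 with an SE of 0.12 (limma adjusted p = 0.707), and it was 0.07 without replicate 4, so no direction can be given.

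The make-up of the Fos family was set by Fosl1 in 6 of the 8 libraries. Levels were divided by the bases of the merged annotated exons of each gene, so that genes can be set side by side. On that scale Fosl1 made up 78.8%, 72.9%, 78.8% and 39.6% of Fos family reads in vehicle libraries 1 to 4, and 73.9%, 66.9%, 71.7% and 38.6% in acetate. Its share was lower with acetate in 4 of 4 pairs, by 4.71 ± 2.66 percentage points (SD, n = 4). Fosl2 took 18.3%, 21.1%, 18.5% and 14.8% in vehicle and 23.1%, 24.5%, 23.8% and 16.6% in acetate, higher by 3.81 ± 1.54 points. Shares of a family sum to a fixed total, so this largely mirrors the lower Fosl1 share, and in pair 3 the Fosl2 share was higher while Fosl2 reads were lower (2735.3 and 2638.6). Fos was a minor member at 1.02% to 6.18% of the family in replicates 1 to 3, but took 41.9% of it in vehicle and 42.1% in acetate in replicate 4. Fosb stayed between 1.29% and 3.71%. These shares rest on the lengths, since Fosl2 has 9680 merged exon bases and Fosl1 2033, and without the division Fosl2 held 49.4% ± 5.62 of the family in vehicle and Fosl1 38.6% ± 10.6 (SD, n = 4).

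**Figure D2:**
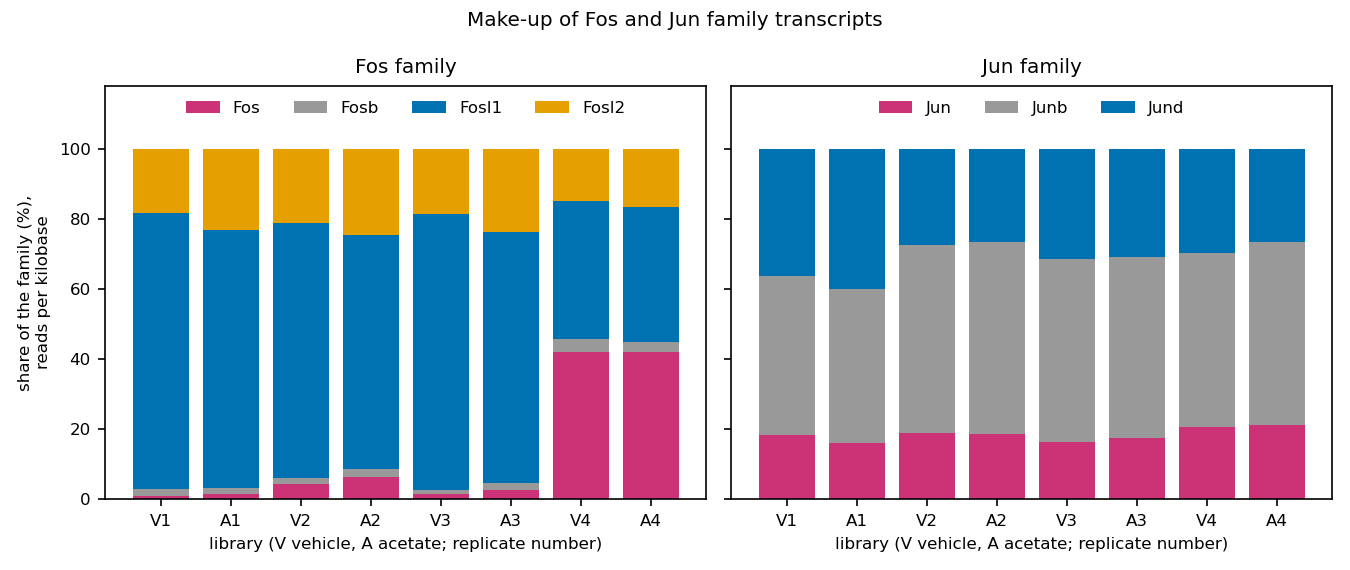
Share (%) of each gene in the summed reads per kilobase of its family, in each vehicle (V) and acetate (A) library by replicate number, with the Fos family on the left and the Jun family on the right. Fosl1 is the largest share in replicates 1 to 3, Fos takes 41.9% and 42.1% in replicate 4, and Junb is the largest share of the Jun family in all 8 libraries.

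The Jun family supplies the partners for all Fos proteins, and none of its 3 genes passed the threshold. Jun (ENSMUSG00000052684, chromosome 4, 95049034 to 95052222, minus strand) had 1475.7, 1886.5, 2421.7 and 2545.6 normalised reads with vehicle and 1482.5, 1968.4, 1866.7 and 2312.2 in acetate. Junb (chromosome 8, 84974484 to 84978718, minus strand), a Jun protein that activates more weakly and can restrain Jun, had 2620.2, 3824.3, 5630.5 and 4409.4 in vehicle and 2972.1, 4139.5, 3972.1 and 4101.1 in acetate. Jund (chromosome 8, 70698949 to 70700616, plus strand), the family member that is made most evenly in resting and growing cells, had 1534.5, 1423.4, 2452.9 and 1904.8 in vehicle and 1942.4, 1466.0, 1727.9 and 1528.7 in acetate. All 3 genes were higher with acetate in pairs 1 and 2 and lower in pairs 3 and 4. The log2 changes were -0.11 with an SE of 0.06 for Jun (limma adjusted p = 0.290), -0.08 with an SE of 0.08 for Junb (0.650) and -0.11 with an SE of 0.10 for Jund (0.587). The 95% intervals of these changes were -0.24 to 0.02, -0.26 to 0.11 and -0.33 to 0.11. Without replicate 3, the change was 0.06 for Junb and 0.02 for Jund, so the sign of both rests on that pair. Each of the 3 genes overlaps another on the opposite strand. Jun shares 232 exon bases with the antisense Junos (97.1 ± 59.0 normalised reads with vehicle, SD, n = 4). Jund shares 877 with the antisense Gm11175, which had at most 12.3. Junb shares 173 with Prdx2, whose mean level was above that of Junb. Prdx2 went from 6440.1 ± 201.1 to 6960.4 ± 197.5 with acetate (SD, n = 4; log2 change 0.11, limma adjusted p = 0.0426). The part of these overlaps in the values was not tested.

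Per kilobase, Junb made up 44.2% to 54.6% of the Jun family, Jund 26.7% to 39.9% and Jun 15.9% to 21.2% over the 8 libraries. The mean share of each differed between the treatments by less than 1 SD over the pairs. Summed over the family, Jun transcripts came to 3540.5 ± 934.1 normalised reads per kilobase in vehicle and 3246.9 ± 223.6 in acetate, and Fos transcripts to 1518.7 ± 231.8 and 1341.9 ± 250.1 (SD, n = 4). In each library the Jun sum was thus above the Fos sum.

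A single pair carried much of the lower values in both families. In pair 3 the log2 difference was -0.55 for Fosl1, -0.50 for Junb, -0.51 for Jund and -0.38 for Jun. Among genes with a mean of at least 64, only 0.379% were as low as Fosl1 in that pair, 0.499% as low as Junb, 0.489% as low as Jund and 1.3% as low as Jun. For all 4 genes vehicle library 3 stood above acetate library 3, and it was the highest of all 8 libraries for Junb and Jund. Vehicle library 3 was also the library with the fewest reads, at 19.9 M. These genes are rich in G and C, with 58.5% in the longest transcript of Fosl1, 62.6% in Junb, 67.1% in Jund and 55.5% in Jun. Within the tenth of genes with the most G and C (57.6% to 69.4%), whose median log2 difference in pair 3 was 0.01, 1.57% were as low as Fosl1, 2.03% as low as Junb and 1.94% as low as Jund, so such low values were more frequent there than over all genes. In the tenth that holds Jun, 1.75% were as low as Jun. The part of base composition and of depth in these values was not tested. Fosl1 without this pair had a log2 change of -0.19 and still passed (limma adjusted p = 0.0437).

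Dusp1 encodes MKP-1, a phosphatase that is induced by MAP kinase signals and switches MAP kinases off, and it was the one member that was higher with acetate past the threshold. Dusp1 (ENSMUSG00000024190, chromosome 17, 26505590 to 26562128 with its longest annotated transcript, minus strand) had 139.7, 233.6, 175.9 and 379.4 normalised reads with vehicle and 196.2, 255.2, 194.4 and 462.1 in acetate. It was higher in 4 of 4 pairs, which was so for 16.7% of all genes and 21.9% of those with a mean of at least 64, and replicate 4 was highest in both groups. The mean went from 232.2 ± 105.5 to 277.0 ± 126.6 (SD, n = 4), a log2 change of 0.26 with an SE of 0.07 and a fold of 1.20 (95% interval 1.07 to 1.34, limma adjusted p = 0.0495). This call lay at the threshold: it was lost without any 1 pair (limma adjusted p from 0.0957 to 0.219), without the block (1.00), with median-of-ratios scaling (0.0621), with a pseudocount of 0.1 (0.0688) or 5 (0.0558), and in DESeq2 (0.173). It was kept in edgeR (0.0271) and in limma with a minimum mean of 10 (0.0290), and lost in edgeR without replicate 3 (0.0562).

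Ier3, which encodes the stress-induced survival protein IEX-1, had the highest level of the 10 genes and a small difference that was widest in pair 1. It (ENSMUSG00000003541, chromosome 17, 35821684 to 35822923, plus strand) had 5680.8, 6724.1, 5553.1 and 8302.2 normalised reads with vehicle and 6816.0, 7227.4, 5807.6 and 8494.0 in acetate. All 4 acetate libraries were above their vehicle partners, by log2 differences of 0.26, 0.10, 0.06 and 0.03. The log2 change of 0.12 with an SE of 0.04 did not pass (limma adjusted p = 0.0689), and it passed when genes with a mean under 10 were left out (0.0343). Without replicate 1 the change was 0.07 (limma adjusted p = 0.191).

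Egr1, a zinc finger transcription factor and immediate early gene outside the AP-1 families, behaved like Fos in its spread. Egr1 (ENSMUSG00000038418, chromosome 18, 34859823 to 34864984, plus strand) had 168.7, 1301.4, 1005.3 and 3352.3 normalised reads with vehicle and 215.0, 1266.5, 841.8 and 3618.1 in acetate. The libraries kept the same order in both groups, with replicate 1 lowest and replicate 4 highest. The pairs split 2 against 2, and the log2 change was 0.04 with an SE of 0.07 (limma adjusted p = 0.816, 95% interval -0.12 to 0.20). The replicate number held 99.4% of its variance.

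**Figure D3:**
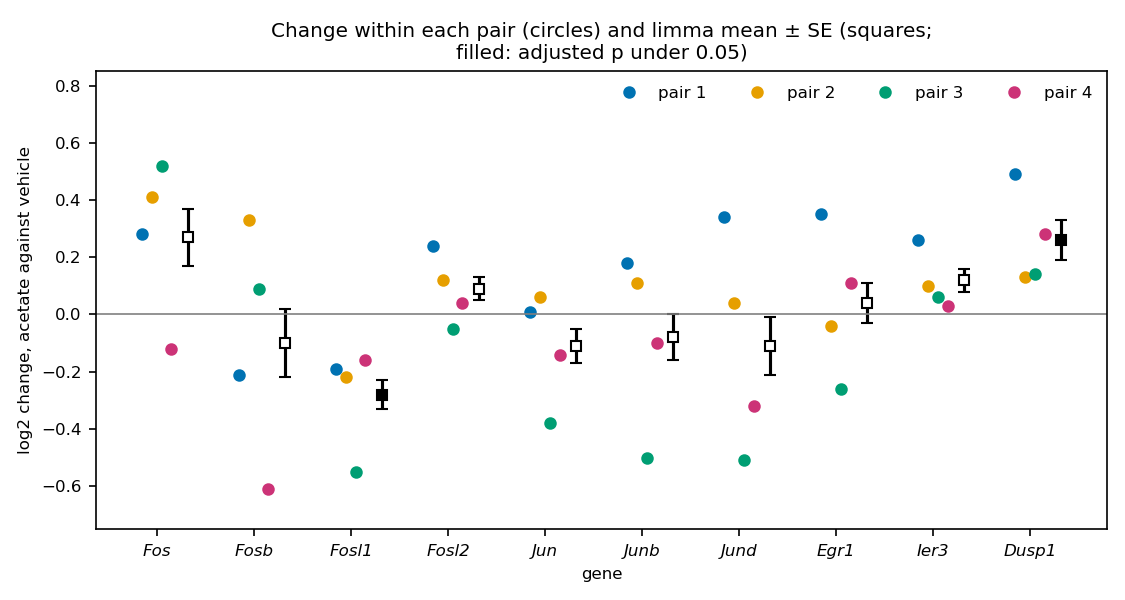
Log2 change, acetate against vehicle, of each gene in pairs 1 to 4 (circles) and its limma mean with SE (squares, filled where the adjusted p was under 0.05). Fosl1 lies below 0 and Dusp1 and Ier3 above 0 in all 4 pairs, and the green circles of pair 3 are the lowest for Fosl1, Fosl2, Jun, Junb, Jund and Egr1.

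Upstream sequence is shown for 3 of these genes because they held the only matches among the 8 genes with a RefSeq promoter window (GRCm38.p6): Fos, which varied most between replicates, Dusp1, which was called, and Jun, the core of AP-1. Of these, only Dusp1 matched a motif chosen before the windows were seen. Each run is the 200 bases before the annotated start, 5′ to 3′ on the gene's strand, at chr12:85473690-85473889 (plus) for Fos, chr4:95052223-95052422 (minus) for Jun and chr17:26508473-26508672 (minus) for Dusp1. Capitals mark the matches.
Fos: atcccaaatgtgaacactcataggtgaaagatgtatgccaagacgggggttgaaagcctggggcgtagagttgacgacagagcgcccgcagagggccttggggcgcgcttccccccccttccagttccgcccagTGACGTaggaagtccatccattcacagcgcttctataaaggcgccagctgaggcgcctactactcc
Jun: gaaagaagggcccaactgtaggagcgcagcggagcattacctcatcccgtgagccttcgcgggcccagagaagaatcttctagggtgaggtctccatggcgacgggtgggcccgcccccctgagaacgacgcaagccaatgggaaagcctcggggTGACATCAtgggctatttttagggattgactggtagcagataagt
Dusp1: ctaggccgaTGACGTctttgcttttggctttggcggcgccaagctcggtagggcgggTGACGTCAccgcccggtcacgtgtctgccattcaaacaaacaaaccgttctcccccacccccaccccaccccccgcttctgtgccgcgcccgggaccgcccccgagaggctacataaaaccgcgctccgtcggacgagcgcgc

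The search covered 300-base windows, 250 before the start and 50 after, on both strands. The motifs were the AP-1 site (TPA response element) TGANTCA, the cyclic AMP response element TGACGTCA, which ATF and CREB proteins bind, and the CArG box, which serum response factor binds. The shorter TGACGT, which lies inside TGACGTCA, and the variant TGACATCA were added after the windows were seen. Dusp1 held TGACGTCA from -143 to -136 and a separate TGACGT from -191 to -186, counted from the start. Fos held TGACGT from -66 to -61, and Jun held TGACATCA from -45 to -38. No window of the 8 genes held TGANTCA or a CArG box. Of all 32851 windows, 7.81% held TGANTCA, 1.79% TGACGTCA, 1.63% a CArG box, 7.51% TGACGT and 3.62% TGACATCA. These letters were absent from the windows of Fosb, Fosl2, Junb, Jund and Ier3. The Jund window (chr8:70697489-70697788) lies upstream of the gene start given above and does not adjoin it. Fosl1 and Egr1 were named only.

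Set side by side per kilobase, the 10 genes kept the same order of mean levels in both groups: Ier3, Junb, Jund, Fosl1, Jun, Egr1, Fosl2, Fos, Dusp1 and Fosb. Vehicle means ran from 5804.7 ± 1124.1 normalised reads per kilobase for Ier3 through 1791.0 ± 544.1 for Junb, 1018.1 ± 318.7 for Fosl1 and 70.1 ± 31.9 for Dusp1 to 33.3 ± 19.2 for Fosb (SD, n = 4). Among neighbours in that order, the vehicle ranges of Ier3 and Junb did not overlap, and those of all other neighbours did. Ier3 stood above Junb, Junb above Jund and Dusp1 above Fosb in 8 of 8 libraries. Fos stood above Dusp1 in 2 of 8, both of replicate 4, so its place rests on that replicate.

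The 10 genes differed in which replicate was highest. Replicate 4 was highest in both groups for 6 of the 10 genes (Fos, Fosb, Jun, Egr1, Ier3 and Dusp1), which was so for 27.9% of the 10840 genes with a mean of at least 64. Fosl1 and Fosl2 went the other way, with replicate 1 highest and replicate 4 lowest in both groups. Between replicate means, Fos ranged 33.95-fold, more than 99.8% of these genes, and Egr1 18.16-fold, more than 99.5%. The other 8 ranged 1.40-fold (Fosl2) to 2.51-fold (Dusp1), beside a median of 1.43-fold over all these genes. Of the 36 other immediate early genes, replicate 4 was highest in both groups for 14 (38.9%) and replicate 1 for 12 (33.3%), beside 27.9% and 29.6% of genes with a mean of at least 64. Among them, named here after their values were seen, Egr2 (30.68-fold) and Egr3 (16.05-fold) ranged most, with replicate 4 highest and replicate 1 lowest as for Egr1. The secreted matrix proteins Ccn1 (5.76-fold) and Ccn2 (3.95-fold) and the prostaglandin synthase Ptgs2 (5.00-fold) were highest in replicate 1. In bulk RNA, a smaller share of cells that express a gene and less RNA per cell cannot be told apart.

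**Figure D4:**
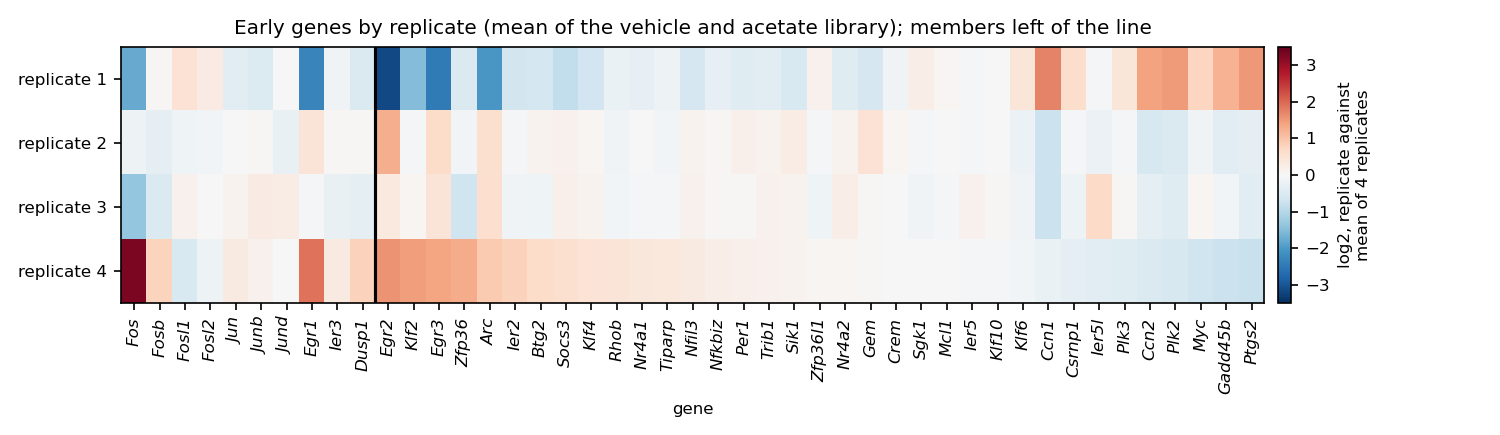
Log2 level of each replicate (mean of its vehicle and acetate library) against the mean of the 4 replicates, for the 10 genes (left of the line) and other immediate early genes with a mean of at least 10 normalised reads, ordered by replicate 4. Red is higher and blue lower, and Fos (33.95-fold between replicates), Egr1, Egr2 and Egr3 show strong colours, with replicate 4 high.

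The rest of the pathway was read from lists written with earlier results of these data known. Other bZIP partners of AP-1 gave 1 call among 12 measured (8.33%): Jdp2, which encodes a Jun dimerisation protein that represses AP-1 sites, fell from 754.7 ± 257.0 to 626.0 ± 246.6 normalised reads (SD, n = 4; log2 change -0.29, limma adjusted p = 0.0228). Of 36 other immediate early genes, 5 were higher and 0 lower, with a median log2 change of 0.07. They were Zfp36l1, which encodes a protein that hastens mRNA decay (1785.3 ± 162.8 to 2207.8 ± 252.9, log2 change 0.30, limma adjusted p = 0.00270), the clock gene Per1 (429.0 ± 79.0 to 504.7 ± 91.4, log2 change 0.23, adjusted p = 0.00867), and Nr4a1, Csrnp1 and Nfil3. The called share of this list was 13.9%, near that of well measured genes. Zfp36l1 kept its call without any 1 pair, whereas Jdp2 and Per1 lost theirs without replicate 2, 3 or 4.

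Among 16 MAP kinase phosphatases and feedback inhibitors of ERK other than Dusp1, 3 were higher and 1 lower, a called share of 25.0% beside 14.8% of well measured genes. The EGF receptor inhibitor gene Errfi1 rose by a log2 change of 0.14 (limma adjusted p = 0.0263), Spred2, whose product restrains signalling from RAS, by 0.11 (0.0357), and the phosphatase gene Dusp9 fell by 0.23 on the log2 scale (0.0158). The third rise was Spry1, at a log2 change of 0.20 (0.0361). Median-of-ratios scaling left 1 higher and 1 lower in this list. Of 30 genes upstream of the early response, from RAS to serum response factor, 2 were higher and 3 lower, a called share of 16.7% that is near the 14.8% of well measured genes. Mapk3, which encodes ERK1, was at a log2 change of 0.24 (adjusted p = 0.00830) and the ERK-activated kinase gene Rps6ka1 at 0.13 (0.0318), while Nras was at -0.18 (0.00155) and Hras at -0.18 (0.0442). None of the 5 genes for turnover of Jun and Fos proteins passed, and the smallest p was that of the ubiquitin ligase adaptor Det1 (log2 change -0.05, adjusted p = 0.695). The call of Nras held without any 1 pair, that of Mapk3 was lost without replicate 3, that of Dusp9 without replicate 3 or 4, and those of Errfi1, Spred2 and Rps6ka1 without replicate 2, 3 or 4.

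Genes known from textbooks as AP-1 targets moved in both directions, with 4 higher and 3 lower of 13 and a median log2 change of 0.00. Those that were higher encode secreted proteins, but so do genes of the list that did not pass. Among the latter were Mmp9 (log2 change -0.09), Plau (-0.01), Timp1 (0.07) and Vegfa (0.11). Spp1, which encodes osteopontin, had 2917.9, 21318.3, 20608.1 and 26751.2 normalised reads with vehicle and 4509.5, 30807.7, 29658.3 and 38508.3 in acetate. Each acetate library was above its partner by a log2 difference between 0.53 and 0.63 (log2 change 0.55 with an SE of 0.03, limma adjusted p = 3.92e-06). The matrix protease gene Mmp3 rose from 2971.4 ± 1140.7 to 4320.0 ± 1678.6 (log2 change 0.54, adjusted p = 8.19e-06), and Mmp10 and Mmp13, of the same enzyme family, rose by log2 changes of 0.37 and 0.65 (0.0210 and 0.0339). The cyclin gene Ccnd1 fell by 0.16 on the log2 scale (adjusted p = 0.00426), the chromatin protein gene Hmga1 by 0.15 (0.00434) and Plaur, which encodes the urokinase receptor, by 0.17 (0.00856). The called share of this list was 53.8%, beside 14.8% of well measured genes. The list is a textbook selection, written with earlier results of these data known, and was not tested as a set. Its share thus does not measure an enrichment. Spp1 and Mmp3 kept their calls without any 1 pair, Ccnd1 lost its call without replicate 2 or 3, and Hmga1 without replicate 2. No call in any list held without the block.

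**Figure D5:**
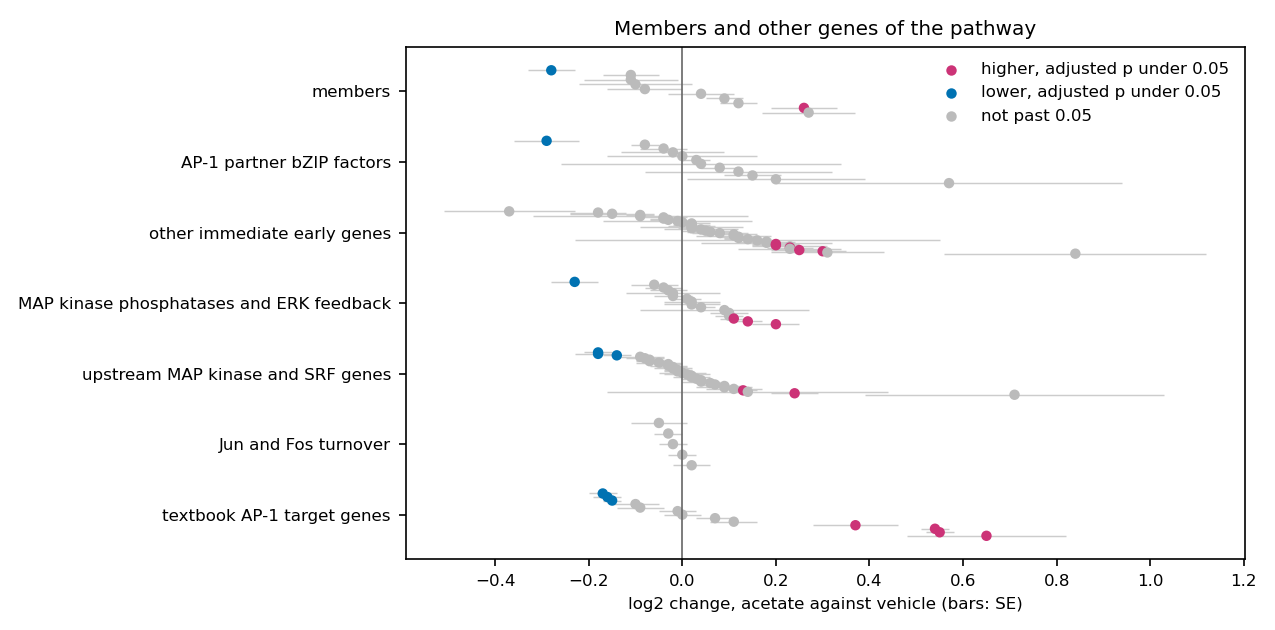
Log2 change with SE, acetate against vehicle, of the genes of each list, ordered within a list by the change (pink higher and blue lower with an adjusted p under 0.05, grey not past it). Most genes lie within 0.2 of 0, and Spp1, Mmp3, Mmp10 and Mmp13 form the pink points on the right of the AP-1 target list.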

How the data were processed

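The deposited table held 1 normalised signal per gene and library: per the study's methods, the authors made stranded poly-A libraries, aligned reads to the mouse transcriptome (GRCm38/mm10), counted per gene with STAR (HTSeq is also listed, with no version), divided by the library total and filtered on expression, leaving genes above 0 in at least 4 of 8 libraries. Each library summed to 20000000. Symbols, positions and exon lengths were taken from GENCODE (20004 of 20189 genes matched). Whole reads were recovered from the smallest step of each library.

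The log2(value + 1) values were fitted with limma 3.58.1 in R 4.3.3 (two-sided, empirical Bayes with a mean trend) with the replicate number as a block and Benjamini-Hochberg adjustment over all genes at 0.05. Folds on this scale are too small for low genes. The numbers pair the libraries: same-numbered libraries share a code, and their deviations from the group means correlated at 0.81, 0.27, 0.20 and 0.69 across 18188 genes. P-values measure the spread between these samples. edgeR 4.0.16 and DESeq2 1.42.0 on recovered reads were alternatives, as were pseudocounts of 0.1 and 5, a minimum mean of 10, median-of-ratios scaling, no block, and leaving out each pair. edgeR without replicate 3 was chosen after seeing the data. The fitting steps were tested on simulated data.

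The 10 genes and the lists were chosen with earlier results of these data known. All 10 were named, and from each other list up to 2 genes with the smallest p in each direction among those past the threshold, or the 1 with the smallest p where none passed. Other names were chosen after their values were seen. One gene that the rule picked is not reported here, and counts include it.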

Additional observations from a re-analysis of the deposited data

Results flagged for a closer look

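Of 20 groups of 4 libraries tested, 2 for each of the 10 genes, 3 held a library whose gap to the nearest other, divided by the range of the group, passed Dixon's 95% limit for 4 samples. Chance flags about 1 group in 20 where values are normally distributed. The gaps were taken on normalised reads and not on the log2 scale of the fits, and Fos ranged 39.23-fold in vehicle and 29.61-fold in acetate. For Fos, the library of replicate 4 stood apart as the highest in vehicle (0.949) and in acetate (0.923). For Junb, acetate library 1 stood apart as the lowest of its group (0.857), at 2972.1 normalised reads against 3972.1 to 4139.5 in the other 3.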

How the results depend on the processing

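The replicate block decided the calls. Without it, 0 of 20189 genes passed, and 0 genes of every list, 0 of the 10 genes higher and 0 lower, with changes of the same size (-0.28 for Fosl1, 0.26 for Dusp1). With it, 1744 genes passed in limma, 2400 in edgeR and 1126 in DESeq2, and 409 to 1662 when 1 pair was left out. Higher genes made up 69.3% of these calls, and 54.9% with median-of-ratios scaling (1000 higher, 821 lower). Of the 10 genes, 1 was higher: this was 0 with a pseudocount of 0.1 or 5, with median-of-ratios scaling, in DESeq2, in edgeR without replicate 3 and without each 1 pair (0 to 0), and 2 with a minimum mean of 10. The 1 lower gene, Fosl1, was called under every alternative other than no block and without replicate 4 (0 to 1 without 1 pair).

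Signs turned for Fos in edgeR without replicate 3 (-0.01), Fosb without replicate 4 (0.07, range without 1 pair -0.25 to 0.07), Junb without replicate 3 (0.06, range -0.16 to 0.06, and 0.04 in edgeR), Jund without replicate 3 (0.02, range -0.26 to 0.02), and Egr1 in edgeR (-0.01), DESeq2 (-0.01) and without replicate 1 (-0.06, range -0.06 to 0.14). The cause was not tested. Calls among bZIP partners (1) were 2 with median-of-ratios scaling and in edgeR and 0 to 1 without 1 pair. Other immediate early genes (5) gave 3 with a pseudocount of 0.1, 11 in edgeR, 1 in DESeq2 and 1 to 6 without 1 pair. Feedback genes (4) gave 2 with median-of-ratios scaling, 1 in DESeq2, 2 in edgeR without replicate 3 and 0 to 3 without 1 pair. Upstream genes (5) gave 3 in DESeq2, 3 in edgeR without replicate 3 and 1 to 5 without 1 pair. AP-1 targets (7) gave 2 to 7 without 1 pair. The Fosl2 share differed by 5.66 points without division by length, against 3.81.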
